A study of Homo sapiens with 6 samples.

Results

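The polo-like kinases are a small family of serine/threonine kinases, and 4 of the 16809 genes measured belong to it here: PLK1 (Entrez gene 5347), PLK2 (10769), PLK3 (1263) and PLK4 (10733). They were taken by gene symbol, and the family was chosen from results of the same comparison that is described below, so the levels and fold changes of the 4 kinases are given as a description, without a test. Both groups of libraries were of CAL-27, an established human tongue squamous carcinoma line. The ES-Cu group (3 libraries) had received elesclomol, an ionophore that carries copper into cells, together with copper in equal proportion for 24 h. The control group (3 libraries) is labelled as a normal control, with no agent named. Nothing in the labels tells if a group's libraries came from separate cultures, so the spread between them may be technical. Values are TPM, a level corrected for transcript length, which allows genes to be compared, and scaled to the same total in every library; sequencing depth is unknown because TPM keeps no read totals.

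PLK1 is the central mitotic kinase of the family. Aurora A and its cofactor BORA switch it on in G2, and it then drives mitotic entry, spindle assembly, chromosome separation and cytokinesis. PLK4 starts centriole duplication by binding and phosphorylating STIL. PLK2 and PLK3 were first cloned as genes induced by serum or growth factors, and both are described as targets of p53 and as kinases of stress responses, with roles outside mitosis. The mRNAs of PLK1 and PLK4 are cell cycle regulated, and CHR elements, which recruit the MuvB complexes DREAM and B-MYB-MuvB, are known in promoters of such genes.

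ES-Cu libraries held less PLK1 mRNA and more PLK3 mRNA than control libraries, whereas PLK2 and PLK4 differed little on the deposited scale. PLK1 had 32.53, 31.96 and 32.63 TPM in the ES-Cu libraries, against 144.89, 142.61 and 144.74 TPM in the control libraries. Every ES-Cu library lay far below every control library, and the mean was 32.4 ± 0.361 TPM in ES-Cu and 144 ± 1.28 TPM in control (SD, n = 3 each, as throughout), 4.45 times as high in control. PLK4, the other kinase of the division cycle, had 15.67, 15.88 and 14.43 TPM in ES-Cu libraries, against 18.30, 18.97 and 16.88 TPM in control libraries. The PLK4 groups did not overlap, but the gap between the closest libraries, 15.88 TPM in ES-Cu and 16.88 TPM in control, was smaller than the range within either group, and the ES-Cu mean was 0.849 times the control mean.

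PLK3, the kinase known from stress and growth factor responses, had 40.70, 39.42 and 44.13 TPM in ES-Cu libraries, against 7.69, 6.57 and 7.82 TPM in control libraries. All ES-Cu libraries were above all control libraries, and the mean of PLK3, 41.4 ± 2.44 TPM in ES-Cu, was 5.63 times the 7.36 ± 0.687 TPM of control. PLK2 had 94.65, 92.28 and 101.27 TPM in ES-Cu libraries, against 85.41, 84.20 and 81.88 TPM in control libraries. The PLK2 groups again did not overlap, and the mean in ES-Cu (96.1 ± 4.66 TPM) was 1.15 times that in control (83.8 ± 1.79 TPM). PLK2 and PLK3 therefore shared a direction but not a size. Groups without overlap are not particular to these kinases. The groups of STIL and SASS6, described below, did not overlap either, whereas those of BTRC did, and the share over all tested genes is not given here. In bulk RNA, a smaller share of cells in the phase that expresses a gene and less of its mRNA per cell cannot be told apart.

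**Figure D1:**
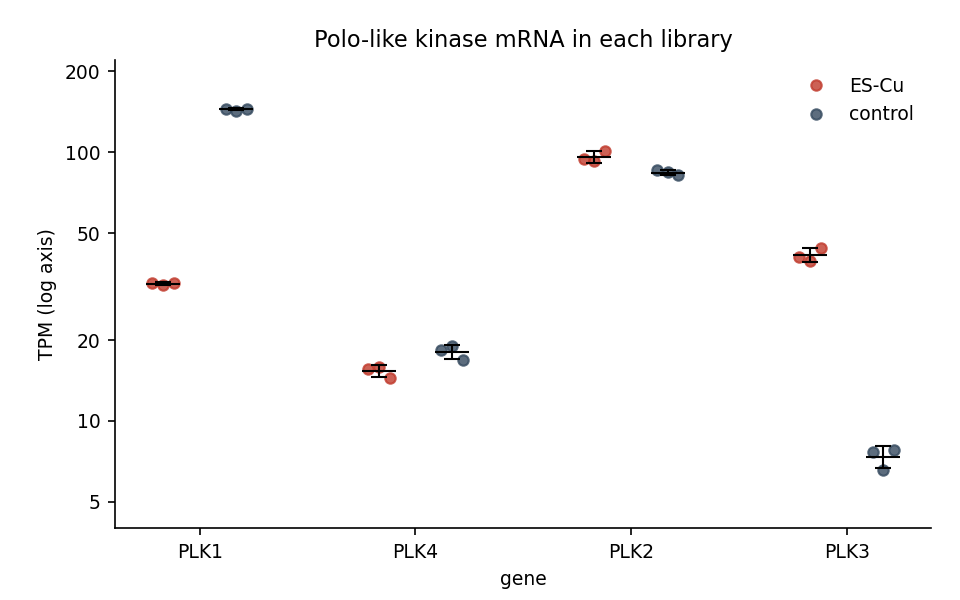
TPM of each polo-like kinase (log axis) in the 3 ES-Cu libraries (red, left of each pair) and the 3 control libraries (dark blue, right); points are libraries, and the bars give the mean and SD. PLK1 sits near 32.4 TPM in ES-Cu and 144 TPM in control, PLK3 near 41.4 and 7.36 TPM, and PLK2 and PLK4 differ much less.

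The order of the 4 levels differed between the groups. In ES-Cu libraries PLK2 was highest, followed by PLK3, PLK1 and PLK4. In control libraries PLK1 was highest, followed by PLK2, PLK4 and PLK3. No neighbours in either order overlapped over the 3 libraries of the group: the closest were PLK3 and PLK1 in ES-Cu, with 39.42 TPM as the lowest PLK3 value and 32.63 TPM as the highest PLK1 value. PLK5, the remaining gene of the family, was not analysed here.

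The promoters of the 4 kinases are shown because changes on the deposited scale differed within each pair. PLK1 fell far more than PLK4, the other known cell cycle gene, and PLK3 rose far more than PLK2, the other known inducible gene. All 4 matched RefSeq (GRCh38.p14), in windows of 250 bases before to 50 bases after the annotated start, read 5′ to 3′ on the gene's strand, with every match to a searched motif in capitals. PLK1 lies on chromosome 16 (chr16:23678639-23678938, plus strand), PLK4 on chromosome 4 (chr4:127880643-127880942, plus strand, the first of 3 windows for that gene), PLK2 on chromosome 5 (chr5:58460037-58460336, minus strand) and PLK3 on chromosome 1 (chr1:44800127-44800426, plus strand).
PLK1: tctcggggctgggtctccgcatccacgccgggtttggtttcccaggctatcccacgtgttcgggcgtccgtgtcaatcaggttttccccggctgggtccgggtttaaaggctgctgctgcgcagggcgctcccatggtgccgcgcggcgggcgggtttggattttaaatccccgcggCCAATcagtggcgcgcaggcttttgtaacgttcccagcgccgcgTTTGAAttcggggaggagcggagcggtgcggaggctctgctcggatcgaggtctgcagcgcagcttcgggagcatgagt
PLK4: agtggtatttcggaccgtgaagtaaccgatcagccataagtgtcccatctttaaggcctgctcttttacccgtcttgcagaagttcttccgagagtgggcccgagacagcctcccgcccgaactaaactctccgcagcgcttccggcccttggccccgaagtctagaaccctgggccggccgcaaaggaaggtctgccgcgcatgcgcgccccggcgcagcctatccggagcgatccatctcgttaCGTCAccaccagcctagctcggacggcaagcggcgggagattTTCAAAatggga
PLK2: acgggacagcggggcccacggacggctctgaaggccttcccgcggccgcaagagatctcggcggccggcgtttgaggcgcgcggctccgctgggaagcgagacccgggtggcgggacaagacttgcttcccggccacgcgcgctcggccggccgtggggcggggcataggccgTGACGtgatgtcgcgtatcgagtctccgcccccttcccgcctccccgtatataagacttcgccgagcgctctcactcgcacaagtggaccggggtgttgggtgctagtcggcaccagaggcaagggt
PLK3: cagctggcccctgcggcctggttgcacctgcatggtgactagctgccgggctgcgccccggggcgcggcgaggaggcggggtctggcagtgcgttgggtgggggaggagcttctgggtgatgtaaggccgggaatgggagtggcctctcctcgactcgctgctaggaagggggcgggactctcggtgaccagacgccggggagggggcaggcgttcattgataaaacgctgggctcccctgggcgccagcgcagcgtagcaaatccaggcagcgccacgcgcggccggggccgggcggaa

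The motifs were searched on both strands, and none of the matches in these 4 windows overlapped another. A CHR element (TTTGAA or TTCGAA) stood in PLK1 from base -29 to -24 and, on the other strand, in the first PLK4 window from base 39 to 44 after the start. It was found in 16.4% of all 35116 promoter windows. A CCAAT box (CCAAT), the site of NF-Y, lay from base -73 to -69 in PLK1 and was found in 34.6% of all windows. TGACG, the core of the cyclic AMP response element bound by CREB and ATF factors, lay from base -77 to -73 in PLK2 and across the start in PLK4, and was found in 24.6% of windows.

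The letters of the AP-1 site (TGANTCA, in 7.71% of windows), the heat shock element (GAANNTTC, 6.77%), the E2F site (TTTCCCGC or TTTGGCGC, 2.27%) and the TATA box (TATAAA, 11.5%) were in none of the 4 windows printed. PLK3 held none of the motifs searched, which says only that these letters are not in this window. The other PLK4 windows held a heat shock element at base -250 to -243 of the second and a CCAAT box at base -86 to -82 of the third.

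TPM are relative levels within a library, and on the deposited scale the median of all 11927 tested genes had a log2 fold change of -0.50 (ES-Cu minus control, on log2(TPM + 1), which understates changes of low genes). After median-of-ratios scaling that median was -0.0096, and after quantile normalization it was -0.073. PLK1 was lower in ES-Cu under each of the 3 scalings, with log2 fold changes of -2.12 ± 0.043 (SE) as deposited, -1.59 after median scaling and -1.82 after quantile normalization. PLK3 was higher in ES-Cu under each, at 2.34 ± 0.080 as deposited, 2.85 after median scaling and 2.79 after quantile normalization. For PLK2 the sign was also positive in all 3, but the size depended on the scaling, with 0.19 ± 0.048 as deposited, 0.73 after median scaling and 0.46 after quantile normalization. PLK4 turned sign, from -0.22 ± 0.072 as deposited to 0.29 after median scaling and 0.24 after quantile normalization. Relative to the median gene of each scaling, PLK4 lay 0.28, 0.30 and 0.32 above it, so its deposited decrease was smaller than that of most genes.

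**Figure D2:**
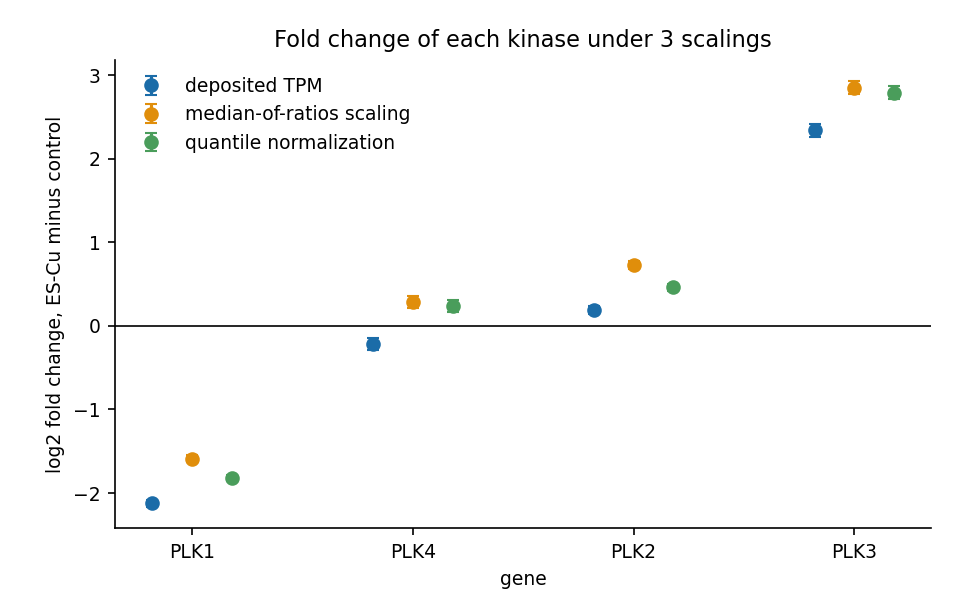
Log2 fold change of each kinase, ES-Cu minus control, on log2(TPM + 1), as deposited (blue), after median-of-ratios scaling (orange) and after quantile normalization (green), with SE bars. PLK1 is below 0 and PLK2 and PLK3 above 0 in all 3, whereas PLK4 is at -0.22 as deposited and at 0.29 and 0.24 in the other scalings.

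Among all tested genes, 0.352% had a lower deposited log2 fold change than PLK1 and 0.545% had a higher one than PLK3. The same positions for PLK2 and PLK4 were inside the bulk of genes, with 13.1% of tested genes above PLK2 and 31.5% above PLK4. Under the call rule used below for genes outside the family (limma adjusted p under 0.05 with the same sign in all 3 scalings), 13.5% of the tested genes were called higher and 31.6% lower in ES-Cu.

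Shares of the family within a library are the same on the deposited TPM and after median scaling, which applies 1 factor per library, and are given on that basis. PLK1 made up 17.5% ± 0.468 of the summed TPM of the 4 kinases in ES-Cu and 56.9% ± 0.617 in control. PLK3 took 22.4% ± 0.511 in ES-Cu and 2.91% ± 0.267 in control. PLK2 took 51.9% ± 0.662 in ES-Cu and 33.1% ± 0.443 in control, so in ES-Cu it was the main polo-like kinase mRNA. PLK4 had a small share, 8.54%, 8.84% and 7.50% in ES-Cu libraries, against 7.14%, 7.52% and 6.72% in control libraries, and the groups overlapped. After quantile normalization, which changes the shares, those of PLK4 did not overlap, at 9.09%, 9.45% and 8.04% in ES-Cu libraries, against 6.68%, 6.99% and 6.25% in control libraries. That setting was added after the data were seen, and under it the shares of the other kinases kept their directions.

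Taken as pairs, PLK1 and PLK4 together held 25.8% ± 1.17 of the family sum in ES-Cu and 64.0% ± 0.318 in control. PLK2 and PLK3 held the remainder, 74.2% ± 1.17 in ES-Cu and 36.0% ± 0.318 in control. The ratio of PLK1 to PLK4, the pair tied to cell division, was 2.08, 2.01 and 2.26 in ES-Cu libraries, against 7.92, 7.52 and 8.57 in control libraries, so these kinases did not keep their proportion. The ratio of PLK3 to PLK2 was 0.431 ± 0.00438 in ES-Cu and 0.0879 ± 0.00894 in control. The summed TPM of the family was 185 ± 6.61 in ES-Cu and 253 ± 2.62 in control.

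**Figure D3:**
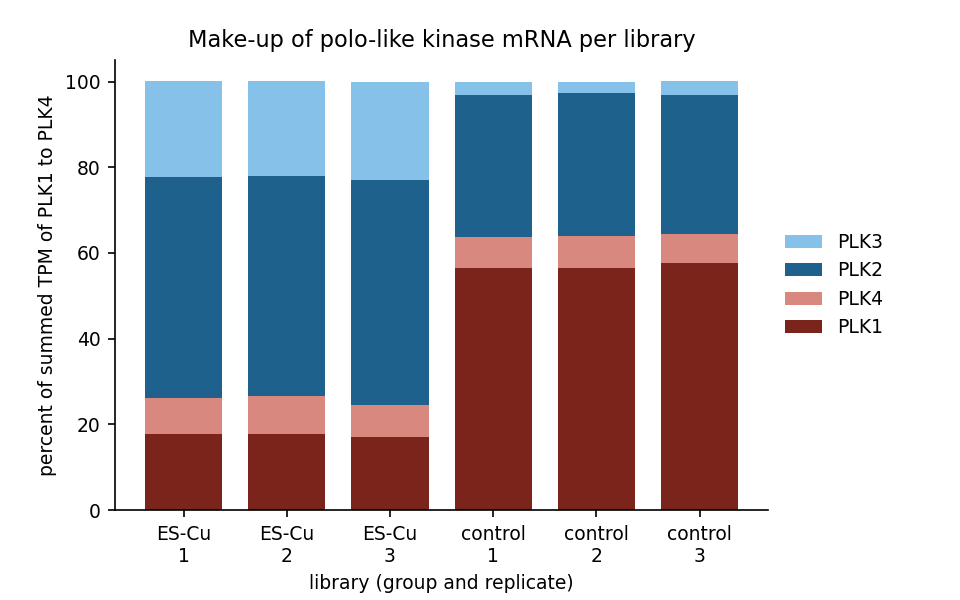
Percent of the summed TPM of PLK1 to PLK4 taken by each kinase, in the 3 ES-Cu libraries (left) and the 3 control libraries (right). From bottom to top the blocks are PLK1, PLK4, PLK2 and PLK3; PLK1 averages 17.5% in ES-Cu and 56.9% in control, and PLK3 22.4% in ES-Cu and 2.91% in control.

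Most genes that act with PLK1 were lower in ES-Cu. Of 35 tested activators and substrates of PLK1, 22 (62.9%) were called lower and 2 (5.71%) higher, against 31.6% and 13.5% of all tested genes. Their median log2 fold change was -0.87, beside -0.50 for all tested genes, and -0.33 after median scaling. Such lists were drawn up with earlier results of these data known and are given without a test of their own.

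AURKA, the kinase that phosphorylates the activation loop of PLK1, fell to 36.4 ± 2.12 TPM in ES-Cu, against 101 ± 0.772 TPM in control (log2 fold change -1.45, adjusted p = 1.86e-09, limma). BORA, its cofactor in that step, fell to 6.99 ± 0.251 TPM in ES-Cu, against 18.9 ± 1.45 TPM in control (-1.31, adjusted p = 6.79e-08, limma). Both activators of PLK1 were thus lower together with PLK1 itself. CCNB1, the cyclin of CDK1, and CDC25C, the phosphatase that activates CDK1 and that PLK1 phosphorylates, had log2 fold changes of -1.67 and -1.46 and were called lower. FOXM1, a transcription factor of G2/M genes that PLK1 activates, was at 50.1 ± 3.23 TPM in ES-Cu and 88.3 ± 2.19 TPM in control (-0.81, called lower).

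The largest fall in that list was in KIF20A, a kinesin that recruits PLK1 to the central spindle, at 10.9 ± 0.690 TPM in ES-Cu and 72.7 ± 0.357 TPM in control (log2 fold change -2.63, adjusted p = 4.13e-11, limma). It was the 1 gene of the 35 with a lower log2 fold change than PLK1. WEE1 is the kinase that holds CDK1 inactive and that PLK1 marks for degradation, and it moved the other way. It was called higher, at 25.4 ± 1.49 TPM in ES-Cu and 22.2 ± 0.120 TPM in control (0.18, adjusted p = 0.0172, limma), but without ES-Cu replicate 2 the call was lost (0.14, adjusted p = 0.0580, limma), leaving 1 higher gene in the list, the cohesion factor gene CDCA5 (0.32). CDCA5 is named because it is the other called gene of a pair, after its value was seen. HSF1, the heat shock factor that PLK1 is reported to phosphorylate, had no single sign, at -0.46 as deposited, 0.063 after median scaling and -0.064 after quantile normalization.

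Genes whose mRNA peaks in G2 and mitosis were also mostly lower. Of 25 tested, 20 (80.0%) were called lower in the limma fit, beside 31.6% of all tested genes, and 0 higher, beside 13.5%. The counts for the list were the same at an unadjusted p under 0.05. Without control replicate 2, MASTL, which encodes the Greatwall kinase, was called higher (0.20, adjusted p = 0.0456, limma). The largest falls were in CENPA, the centromeric histone (-1.81), CENPF, a kinetochore protein (-1.78), and TOP2A, topoisomerase II alpha (-1.69). TOP2A was at 108 ± 3.15 TPM in ES-Cu and 351 ± 10.8 TPM in control. The list median was -1.22 as deposited and -0.69 after median scaling.

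KIF20A, which fell further than PLK1 (-2.63 against -2.12), was counted in the PLK1 list and is not among the 25 G2/M genes. PLK1 had a lower log2 fold change than each of these 25 genes. Set against their median in the same library on log2(TPM + 1), PLK1 lay at -0.33, -0.15 and -0.15 in ES-Cu libraries and at 0.76, 0.64 and 0.79 in control libraries. It thus stood below the median G2/M gene in each ES-Cu library and above it in each control library. PLK4 did not follow the list, and 22 of the 25 genes had a lower log2 fold change than PLK4. The difference of PLK4 from the list median was -1.25 ± 0.114 in ES-Cu and -2.20 ± 0.0423 in control.

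The mRNAs of the listed proteins that bind cell cycle promoters were called in both directions. Of 18 tested genes for MuvB, DREAM, NF-Y, E2F and pocket proteins, 4 (22.2%) were called higher, beside 13.5% of all tested genes. A further 4 (22.2%) were called lower, beside 31.6%. Among called genes that reached 5 TPM in a group, the largest changes were falls of E2F5 (-1.61), of the pocket protein gene RBL2 (-1.32), which encodes p130 of the DREAM complex, and of TFDP2 (-0.92), an E2F dimer partner. The remaining called genes, named after their values were seen, were E2F2, which was lower at -1.27, and E2F3 (0.58), the NF-Y subunit gene NFYA (0.37) and the MuvB subunit genes LIN54 (0.27) and LIN37 (0.23), which were higher. E2F4, the main E2F of DREAM, was at 76.8 ± 1.57 TPM in ES-Cu and 97.4 ± 2.31 TPM in control, and its log2 fold change turned from -0.34 as deposited to 0.20 after median scaling. FOXM1 and MYBL2, which encodes B-MYB, were counted in the PLK1 list and not here, and both were called lower. MYBL2, named after its value was seen, had -0.68 as deposited, -0.15 after median scaling and -0.37 after quantile normalization. Its call was lost without control replicate 1, control replicate 3, ES-Cu replicate 2 or ES-Cu replicate 3.

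Centriole duplication genes, the partners of PLK4, were called lower in a share near that of all genes. Of 26 tested, 8 (30.8%) were called lower, beside 31.6% of all genes, and 2 (7.69%) higher, beside 13.5%, and the list median was -0.53, beside -0.50 for all tested genes. The largest falls were in HYLS1, a centriolar protein (-1.56), CETN3, a centrin (-1.45), and POC1A, a centriole stability protein (-1.40). One of the called higher genes, FBXW11, was not called without control replicate 1 (0.13, adjusted p = 0.0608), control replicate 3 (0.12, adjusted p = 0.0878), ES-Cu replicate 2 (0.12, adjusted p = 0.0525) or ES-Cu replicate 3 (0.13, adjusted p = 0.0645, limma), which left CEP97 (0.27). Both were named after their values were seen.

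Of the partners of PLK4 named by rule, none of STIL, SASS6, CEP152 and BTRC was called. CEP192, which like CEP152 brings PLK4 to the centriole, was called lower (-1.03, adjusted p = 4.22e-07, limma) and is named after its value was seen. STIL, the scaffold that PLK4 binds and phosphorylates, had, like PLK4, a log2 fold change of -0.22 as deposited and 0.30 after median scaling. SASS6, which builds the centriole cartwheel, had -0.48 on the deposited scale and 0.0055 with median scaling. CEP152, a receptor that brings PLK4 to the centriole, had -0.57 on the deposited scale and -0.068 with median scaling, and in the second its adjusted p was 0.429 (limma). BTRC, a subunit of the ubiquitin ligase that removes PLK4, had 0.077 on the deposited scale (adjusted p = 0.392, limma) and 0.57 with median scaling (adjusted p = 5.62e-05, limma). Within the 26 genes, 21 had a lower deposited log2 fold change than PLK4.

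**Figure D4:**
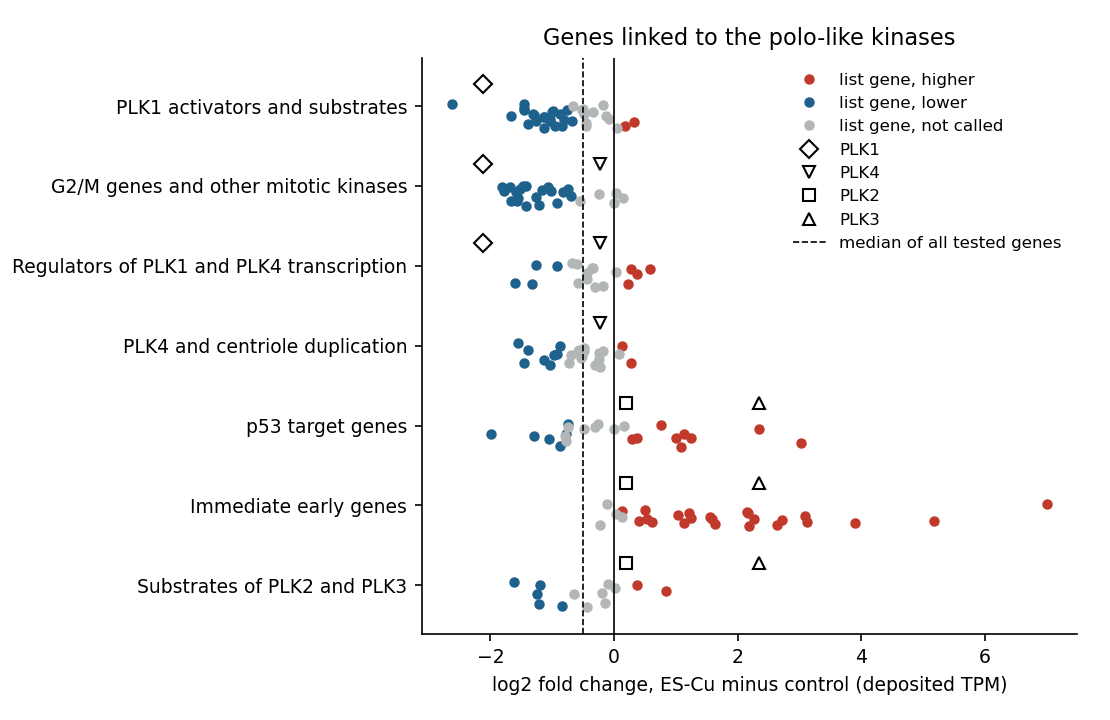
Deposited log2 fold change, ES-Cu minus control, of the tested genes in 7 lists; filled points are list genes called higher (red), called lower (blue) or not called (grey), and open symbols above them are the polo-like kinases. The dashed line marks the median of all tested genes, -0.50. PLK1 lies left of all 25 genes of the G2/M list but right of KIF20A in its own list. PLK4 lies among the centriole genes, and PLK3 lies among the immediate early genes.

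Immediate early genes, which respond quickly to serum or stress, were mostly higher, and PLK3 lay among them. Of 27 tested, 23 (85.2%) were called higher in the limma fit, beside 13.5% of all tested genes, and 0 lower, beside 31.6%. The counts for the list were the same at an unadjusted p under 0.05. The list median was 1.55 as deposited and 2.06 after median scaling. With 1 library left out, 22 or 23 of the 27 genes were called higher. The call of KLF10 (0.13), named after its value was seen, was lost in every such fit but that without control replicate 3. A further immediate early gene, KLF2, stayed below the filter of 1 TPM. The largest rises were in the neuronal activity gene ARC (7.01), the AP-1 gene FOSB (5.18) and the phosphatase gene DUSP1 (3.91). PLK3, at 2.34, was above 20 of the 27 genes, whereas PLK2, at 0.19, was above 5 of them. In the same libraries PLK3 lay 0.41 below the list median in ES-Cu (-0.41 ± 0.0832) and further below it in control (-1.24 ± 0.0473). PLK2 lay above the list median in both, by 0.79 ± 0.0758 in ES-Cu and 2.10 ± 0.180 in control.

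Of 23 tested p53 target genes, 9 (39.1%) were called higher, beside 13.5% of all tested genes, and 6 (26.1%) lower, beside 31.6%. The list median was -0.26 as deposited, beside -0.50 for all genes, but its sign turned with the scaling. The median was 0.24 after median scaling and 0.29 after quantile normalization, beside -0.0096 and -0.073 for all genes. SESN2, which encodes a stress-inducible sestrin, was at 70.4 ± 2.72 TPM in ES-Cu and 7.79 ± 0.374 TPM in control (log2 fold change 3.02, adjusted p = 1.81e-11, limma). GADD45A, a growth arrest gene, rose with a log2 fold change of 2.34, and CDKN1A, the inhibitor p21 of cyclin-dependent kinases, was at 104 ± 2.63 TPM in ES-Cu and 48.0 ± 1.00 TPM in control (1.09, adjusted p = 4.60e-09, limma). DDB2, a DNA damage recognition gene, fell (-1.99). With 1 library left out, 8 or 9 p53 targets were called higher and 5 to 7 lower. The calls of TIGAR (higher) and PHLDA3 (lower), named after their values were seen, were each lost in some of these fits. PLK3 was above 22 of the 23 genes and PLK2 above 14.

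Genes for reported substrates of PLK2 and PLK3 were called in shares near those of all tested genes. Of 13 tested, 2 (15.4%) were called higher and 5 (38.5%) lower, beside 13.5% and 31.6% of all tested genes. The list median was -0.43 as deposited, beside -0.50, but 0.096 after median scaling and -0.045 after quantile normalization. CHEK2, a checkpoint kinase, was at 13.3 ± 1.23 TPM in ES-Cu and 31.8 ± 1.26 TPM in control (log2 fold change -1.20, adjusted p = 8.33e-08, limma). The 2 higher genes, named after their values were seen, were FBXW7 (0.85), a ubiquitin ligase subunit, and the phosphatase gene CDC25A (0.38). SNCB, which encodes beta-synuclein, stayed below the filter.

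Tested genes with the profile most like each kinase were found by the smallest Euclidean distance on log2(TPM + 1) over the 6 libraries, after subtracting each gene's control mean. For PLK1 they were FZD2 (distance 0.0818), LRG1 (0.151) and PADI2 (0.207), with log2 fold changes of -2.08, -2.17 and -2.07. FZD2, LRG1 and PADI2 averaged 1.94, 6.31 and 1.52 TPM in ES-Cu and 11.4, 31.8 and 9.59 TPM in control. Since log2(TPM + 1) understates changes of low genes, their likeness to PLK1 depends on that scale. After quantile normalization they had -1.47, -1.65 and -1.47, beside -1.82 for PLK1. For PLK3 the nearest genes included NRARP (0.180) and INSIG1 (0.223). PLK2 was nearest to RNF169 (0.0364), OCLN (0.0600) and YWHAB (0.0695), and PLK4 to RECQL (0.0422), NUBP1 (0.0582) and CRNKL1 (0.0770). None of the genes named here is in the lists above, and the likeness was measured over 6 libraries in 2 groups.

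Some exons of PLK1 and PLK3 overlap genes on the opposite strand in GENCODE, and whether the reads kept their strand is not given in the sources used here. Of the 2 genes that overlap PLK1, AC008870.3 was not analysed here. The other, ERN2, was at 0.11, 0.10 and 0.00 TPM in ES-Cu libraries and 0.11, 0.24 and 0.11 TPM in control libraries (at most 0.338% of PLK1 in the same library). DYNLT4, which overlaps PLK3, was at 2.95, 3.46 and 2.73 TPM in ES-Cu libraries and 0.62, 0.32 and 0.52 TPM in control libraries, 4.87% to 8.78% of PLK3 in the same library. If the reads did not keep their strand, those of DYNLT4 and PLK3 from the shared stretch cannot be told apart.

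All 10 squamous epithelial markers averaged at least 1 TPM, with sums of 2935 to 2985 TPM in ES-Cu and 2535 to 2657 TPM in control. The markers did not share a direction. SFN averaged 1233 TPM in ES-Cu and 640 TPM in control, KRT6A 234 and 174 TPM, and KRT5 853 TPM in both groups. All the others averaged less in ES-Cu. TP63, a squamous lineage factor, averaged 24.5 TPM in ES-Cu and 86.8 TPM in control, CDH1 71.3 and 173 TPM, and KRT17 282 and 375 TPM. EPCAM, KRT14, DSG3 and DSC3 were the remaining lower markers. The 5 fibroblast markers analysed summed to 4.72 to 5.26 TPM in ES-Cu and 11.4 to 11.6 TPM in control. The 5 endothelial markers summed to 1.28 to 1.90 TPM in ES-Cu and 7.19 to 7.56 TPM in control. Most of the endothelial sum was CDH5, at 1.46 TPM in ES-Cu and 7.15 TPM in control, whereas the very low PECAM1 and KDR averaged more in ES-Cu. Of the 4 leukocyte markers, CD68 made up nearly all of the sum, and PTPRC stayed at or below 0.04 TPM in every library. The part of these markers in the results above was not tested. Libraries correlated across all genes at r = 0.996 to 0.997 within groups and 0.964 to 0.966 between groups (genes are not independent replicates), and no library stood apart.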

How the data were processed

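Per the labels' protocols, RNA was extracted with Trizol and read from 1 end (50 bases) on a BGISEQ500. The authors deposited TPM, with 2 decimals, for 16809 genes. The submitters' processing notes name HISAT and Bowtie2 without versions and GRCm38.p6, a mouse build, although the genes are human; of the Entrez IDs, 16753 (99.7%) matched human RefSeq. The quantifier, annotation and strand setting are not given in the sources used here. TPM keeps no depth, so counting error is unknown and no interval or detection limit was computed.

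The 11927 genes averaging 1 TPM or more entered a fit of log2(TPM + 1) (limma 3.58.1, R 4.3.3, trend, two-sided, Benjamini-Hochberg, no replicate block). A gene was called where the adjusted p was under 0.05 with the same sign on the deposited TPM, after median-of-ratios scaling and after quantile normalization. Adjusted p-values are those of the deposited scale unless a setting is named. The code was tested on simulated data. Promoter sequences came from RefSeq, exon overlaps from GENCODE.

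The members and lists were chosen with earlier results of these data known. Genes were named by rule: the 4 kinases, 14 fixed partners, in each list up to 3 called genes with the largest change whose average reached 5 TPM in either group, and the 3 nearest profiles of each kinase; exceptions are stated where they occur, and a few genes that the rule names are not reported here. Alternatives were single scalings, pseudocounts of 0.1 and 0.5, no filter or one of 5 TPM, removal of the 20 highest genes, no trend, omission of each library and a replicate block.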

Additional observations from a re-analysis of the deposited data

How the results depend on the processing

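Replicate numbers gave no sign of a pairing of the libraries, which does not exclude one. Deviations from the group means correlated at 0.0206, -0.0337 and 0.0107 between same-numbered libraries, and not every library correlated best with its own number. With a replicate block, 1602 genes were called higher and 3753 lower, against 1614 and 3768 without it. Depth is unknown, and with 3 libraries per group the spread of each value is poorly known.

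The scaling changed most. Under median-of-ratios scaling alone 4428 genes were called higher, and under quantile normalization alone 3751; on the deposited TPM alone 8351 were called lower. Median scaling alone called higher 7 genes of the PLK1 list, 7 of the centriole list, 4 of the G2/M list, 10 of the promoter regulators and 6 of the PLK2 and PLK3 substrates, and quantile normalization alone 6, 7 and 3 of the first lists and 4 of the substrates. Deposited TPM alone called lower 22 centriole genes, 12 promoter regulators, 12 p53 targets, 1 immediate early gene and 8 substrates, and quantile normalization alone 8 promoter regulators. With the 20 highest genes removed, 2 G2/M genes were called higher. Leaving out each library gave 1 to 2 higher genes in the PLK1 list, 1 to 2 in the centriole list and 0 to 1 in the G2/M list.

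PLK1 was at -1.59 (median scaling), -1.82 (quantile), -2.15 and -2.14 (pseudocounts 0.1 and 0.5) and -1.97 (20 highest genes removed). PLK2 was at 0.73, 0.46 and, with those genes removed, 0.35. PLK3 was at 2.85, 2.79, 2.48 (pseudocount 0.1) and 2.52 (highest genes removed). PLK4 was reversed to 0.29 and 0.24 and was -0.072 with the highest genes removed. After quantile normalization, a setting added after the data were seen, the ES-Cu minus control difference in family share was -40.04 percentage points for PLK1, 17.81 for PLK2, 20.01 for PLK3 and 2.22 for PLK4, against -39.4, 18.8, 19.4 and 1.17. Among partners, median scaling reversed HSF1 (0.063), STIL (0.30), SASS6 (0.0055) and E2F4 (0.20), and quantile normalization reversed STIL (0.20) and SASS6 (0.095). The cause of these shifts was not tested.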
